A study of Homo sapiens with 2 samples.

Results

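The copper chaperones and transporters described here are 9 genes of untreated SH-SY5Y (SY5Y) cells, out of 33538 Ensembl rows of a single-cell count matrix: SLC31A1, ATOX1, CCS, COX17, SCO1, COX11, ATP7A, ATP7B and COMMD1. They were chosen by name, and each matched 1 row. SY5Y is a human neuroblastoma cell line of adrenergic type, cloned from the line SK-N-SH, so that both flasks hold 1 clonal line. It was grown in high-glucose medium with 10% serum, with no treatment in either group. Cells of 1 culture were divided between 2 flasks, SplitA and SplitB, given 1 hashtag antibody each and mixed before 1 mRNA and 1 hashtag library were made, with 3′ counting of unique molecular identifiers (UMIs, 1 per captured mRNA molecule). A cell was assigned to a flask where 1 hashtag had at least 3 times the counts of the other and the other stayed within the limit of the study's code, which gave 1179 cells of SplitA, 1605 of SplitB and 95 multiplets, and the 899 and 1195 assigned cells with at least 1000 genes were kept.

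Copper is needed by a few enzymes and is toxic when free, so it is passed from protein to protein. It enters through the transporter SLC31A1 and is handed on by small chaperones: ATOX1 carries it to the export ATPases ATP7A and ATP7B in the Golgi membrane, CCS carries it to the superoxide dismutase SOD1, and COX17 carries it in the mitochondrial intermembrane space to SCO1 and COX11, which load the copper centres of cytochrome c oxidase. In noradrenergic cells the copper taken into the secretory pathway is also used by dopamine beta-hydroxylase (DBH), which makes noradrenaline. COMMD1 takes part in the sorting of ATP7A and ATP7B.

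Both flasks had the same condition and shared 1 library, so the flask comparison has no treatment in it, and cells of a flask are not replicates. No p-value was computed. The kept cells held 5852780 UMIs in SplitA and 8066440 in SplitB, with medians of 6063 and 6346 per cell. All 9 adrenergic markers had UMIs, with a sum of 2529 and 2448 CPM (UMIs of a gene per 1000000 UMIs of the cells in question), although TH, the first enzyme of catecholamine synthesis, was at 1.54 and 1.12. The immune markers PTPRC and CD74 and the endothelial markers PECAM1 and CDH5 had no UMI, where 3 UMIs would be 0.513 CPM in SplitA and 0.372 in SplitB. For the epithelial markers, KRT8 had no UMI and EPCAM was at 1.88 and 1.98. Of the mesenchymal list VIM made up nearly all of the sum of 113 and 145, and PRRX1 had no UMI.

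The flask of each cell was read from the barcode of its antibody, a run of 15 bases that was counted beside the genes. Within the pooled library these letters alone tell the flasks apart, so they are shown in full.
Hashtag-1 (SplitA): GTCAACTCTTTAGCG
Hashtag-2 (SplitB): TGATGGCCTATTGGG

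Metallothioneins, the small proteins that buffer copper and zinc, are switched on through metal response elements, and cells rich in their mRNA are compared with cells free of it further on. The windows of 300 bases around the start of COX17 and ATOX1, the members with the most UMIs, are therefore shown beside that of MT2A. They run from 250 bases before the start to 50 after it, come from RefSeq with the build GRCh38.p14, and are on the minus strand for COX17 (chr3:119677357-119677656) and ATOX1 (chr5:151758582-151758881) and on the plus strand for MT2A (chr16:56608334-56608633). Capitals mark the core letters TGCACNC or TGCGCNC on either strand, with overlapping matches run together.
COX17: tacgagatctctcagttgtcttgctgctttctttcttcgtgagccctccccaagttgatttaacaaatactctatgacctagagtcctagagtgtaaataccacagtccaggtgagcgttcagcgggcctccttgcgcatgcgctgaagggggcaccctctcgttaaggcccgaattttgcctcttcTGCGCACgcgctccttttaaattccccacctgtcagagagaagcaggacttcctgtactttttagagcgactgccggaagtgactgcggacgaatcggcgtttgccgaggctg
ATOX1: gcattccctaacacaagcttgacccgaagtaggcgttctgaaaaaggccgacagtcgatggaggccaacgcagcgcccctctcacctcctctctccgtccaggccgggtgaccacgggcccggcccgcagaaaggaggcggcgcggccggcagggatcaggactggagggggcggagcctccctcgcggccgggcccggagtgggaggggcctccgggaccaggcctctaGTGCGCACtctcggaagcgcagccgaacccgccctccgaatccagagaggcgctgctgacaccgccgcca
MT2A: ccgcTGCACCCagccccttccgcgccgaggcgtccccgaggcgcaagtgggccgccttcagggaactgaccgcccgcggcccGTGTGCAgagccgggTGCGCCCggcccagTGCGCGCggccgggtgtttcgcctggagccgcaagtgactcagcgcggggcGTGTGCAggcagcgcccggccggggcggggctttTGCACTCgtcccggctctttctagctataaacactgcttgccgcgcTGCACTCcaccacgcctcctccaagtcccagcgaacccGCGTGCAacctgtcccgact

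The window of MT2A held 8 matches, that of COX17 held 1 and that of ATOX1 held 2, which overlap on opposite strands. Of 35116 windows of the same length, 29.6% held at least 1 match, so a single match is common. CCS had 2 matches, and the windows of SLC31A1, ATP7A and SCO1 had none. The windows of ATP7B had 0, 1 or 2 and those of COMMD1 0 or 1, depending on the start, and a further start of COX17 had 1. No window of COX11 was searched. A match is a run of letters only.

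Levels are CPM over the kept cells of a flask, and shares of cells are those with 1 UMI or more. As 3′ counting gives 1 tag per molecule, levels of different genes were set side by side without division by length. Intervals are exact 95% intervals, Poisson for levels and binomial for shares and ratios, and cover counting error only. All cells are of 1 line, so the share that free RNA would give to a cell without the gene is not known.

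The mRNA of the importer was low beside that of the most abundant members, though above 81.3% of all rows in SplitA and 83.8% in SplitB. Shares of all rows here and below include rows without counts, as 15657 of the 33538 had no UMI in the kept cells. SLC31A1 (ENSG00000136868, plus strand of chromosome 9, 113221544 to 113264492 of GRCh38), the high-affinity importer, was at 12.99 (10.2 to 16.3) CPM in SplitA and 16.4 (13.7 to 19.4) in SplitB, with a UMI in 8.12% and 9.87% of cells. Its relative SLC31A2 was lower still, at 3.59 and 3.84. SLC25A3, the mitochondrial carrier of phosphate and copper, was at 276 and 299, so that it had 21.3 (16.9 to 27.1) UMIs for each of SLC31A1 in SplitA and 18.3 (15.3 to 22.0) in SplitB.

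The 2 most abundant members were chaperones. ATOX1 (ENSG00000177556, minus strand of chromosome 5, 151742316 to 151772532) was at 221 (209 to 233) and 229 (219 to 240.0) CPM, a mean of 225 ± 6.08 (SD, n = 2 flasks), and was found in 69.2% (66.1 to 72.2) and 70.6% (68.0 to 73.2) of cells. COX17 (ENSG00000138495, minus strand of chromosome 3, 119654513 to 119677454) was at 202 (191 to 214) and 222 (211.5 to 232), a mean of 212 ± 13.8, in 59.8% (56.6 to 63.1) and 62.6% (59.8 to 65.3) of cells. Both lay above at least 98.4% of all rows in each flask. They held 76.2% and 77.6% of the UMIs of the 9 members.

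The third chaperone was rare. CCS (ENSG00000173992, plus strand of chromosome 11, 66593153 to 66606019) was at 12.6 (9.93 to 15.9) and 10.3 (8.20 to 12.8) CPM, in 7.90% and 6.61% of cells. Its target SOD1 was at 328 and 318, with 26.0 (20.6 to 33.2) and 31.0 (24.9 to 39.0) UMIs for each of CCS. ATOX1, by contrast, was itself 17.5 (13.8 to 22.4) and 22.3 (17.9 to 28.1) times the level of CCS.

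The mitochondrial acceptors of COX17 were lower than it in both flasks. COX11 (ENSG00000166260, minus strand of chromosome 17, 54951902 to 54968703) was at 46.0 (40.6 to 51.8) and 39.8 (35.6 to 44.4), in 24.9% and 23.6% of cells, and SCO1 (ENSG00000133028, minus strand of chromosome 17, 10672474 to 10698375) at 27.2 (23.1 to 31.7) and 27.4 (23.9 to 31.3), in 15.02% and 17.2%. For each UMI of SCO1 there were 7.44 (6.30 to 8.84) UMIs of COX17 in SplitA and 8.09 (7.03 to 9.35) in SplitB. SCO2, the relative of SCO1, had 0 UMIs in both flasks, with the same limit as for the markers above. Of its annotated exon bases, 26.1% are shared with TYMP on the same strand and 62.1% lie opposite NCAPH2, and the part of this overlap in its count was not tested.

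Of the export ATPases, ATP7A was the one with appreciable counts. ATP7A (ENSG00000165240, plus strand of chromosome X, 77910690 to 78050395) was at 10.6 (8.12 to 13.6) and 12.6 (10.3 to 15.4) CPM, in 6.23% and 7.53% of cells. ATP7B (ENSG00000123191, minus strand of chromosome 13, 51930436 to 52012125), best known from liver and from Wilson disease, had 4 UMIs in SplitA and 8 in SplitB, each in a different cell, which is 0.683 (0.186 to 1.75) and 0.992 (0.428 to 1.95) CPM. ATP7A had 15.5 (5.76 to 58.7) UMIs for each of ATP7B in SplitA and 12.8 (6.23 to 30.3) in SplitB. DBH, the secretory enzyme that uses this copper, was at 335 and 325 and so had 31.6 (24.6 to 41.4) and 25.7 (21.1 to 31.6) UMIs for each of ATP7A.

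COMMD1 (ENSG00000173163, plus strand of chromosome 2, 61888724 to 62147247) was at 22.0 (18.4 to 26.2) and 22.4 (19.3 to 26.0), in 12.9% and 14.1% of cells. It was far from the highest of its family, since COMMD6 had 22.1 (18.5 to 26.6) and 22.3 (19.2 to 26.0) UMIs for each of COMMD1.

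**Figure D1:**
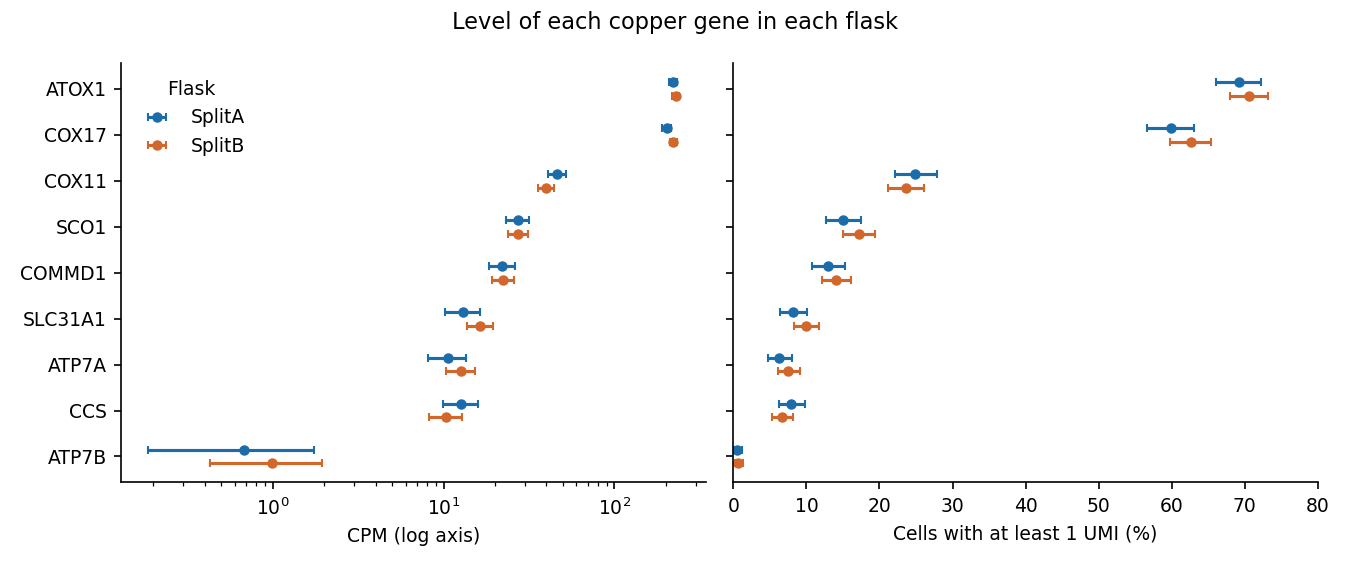
CPM on a log axis (left) and share of cells with at least 1 UMI in percent (right) of the 9 copper genes in SplitA and SplitB, with exact 95% counting intervals as bars. The flasks lie on top of each other for most genes, ATOX1 and COX17 stand at 202 to 229 CPM, and ATP7B is under 1.

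By the mean of the flasks the order was ATOX1, COX17, COX11, SCO1, COMMD1, SLC31A1, ATP7A, CCS and ATP7B. ATOX1 and COX17 were not told apart within their intervals in either flask, and neither were SCO1 and COMMD1, SLC31A1 and ATP7A, or ATP7A and CCS, of which CCS was the higher in SplitA. COMMD1 and SLC31A1 were apart in SplitA and overlapped in SplitB. The steps from COX17 to COX11, from COX11 to SCO1 and from CCS to ATP7B lay outside the intervals in both flasks. A median cell had UMIs of 2 of the 9 members in both flasks, no cell had more than 6, and 8.57% and 8.20% of cells had none.

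Some of these counts can hold reads of neighbours. In GENCODE release 44, COX17 shares 20.04% of its annotated exon bases with POPDC2 on the same strand, and COMMD1 shares 33.6% with the pseudogene RPSAP26, which has no row in the matrix. For COX11, 13.7% of exon bases lie opposite TOM1L1. How the counting treated these reads was not tested.

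Between the flasks the 5 members that were covered in both flasks (1 UMI or more in 10% of cells), ATOX1, COX17, COX11, COMMD1 and SCO1, stayed within a log2 ratio of 0.25, the size limit used throughout. Of all 5191 covered genes, 6.51% were past it. COX11 was nearest to the limit, at 0.21 (-0.03 to 0.45), and COX17, lower in SplitA at -0.13 (-0.24 to -0.03), was the one with a counting interval that left out 0. That interval is too narrow, as COX17 varied over cells by more than counting noise, described next. The other 4 members were past the limit on few UMIs: CCS at 0.30 (-0.17 to 0.77), SLC31A1 at -0.33 (-0.76 to 0.08), ATP7A at -0.26 (-0.73 to 0.21) and ATP7B at -0.54 (-2.72 to 1.36). All 4 intervals included 0. Among the 11919 genes covered at 1% of cells, which include all members except ATP7B, 27.0% were past the limit.

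Over the cells of a flask, COX17 was spread more widely than counting noise gives, and ATOX1, at nearly the same level, was so to a smaller degree. The variance about the value expected from the depth of each cell was 1.52 times its Poisson value for COX17 in SplitA and 1.59 times in SplitB, against 1.13 and 1.12 for ATOX1. COX17 was the only member over the limit of 1.2 in both flasks, and 13.4% of the 5191 genes were over it. High genes pass this limit more often, so COX17 was also set against the 435 genes within 1.5-fold of its level: it was above 89.4% of them in SplitA and 91.7% in SplitB, while ATOX1 was above 29.6% and 28.6% of its own 419 neighbours in level.

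The excess lay at both ends of the distribution. COX17 had 361 cells without a UMI in SplitA, where depth alone gives 273, and 447 in SplitB, where it gives 316. Cells with 5 or more UMIs numbered 42 against 20.2 and 85 against 40.6, and the highest cell had 13 in both flasks. For ATOX1 the cells without a UMI were 277 against 248 and 351 against 303. Beyond counting noise, the coefficient of variation was 0.575 and 0.574 for COX17 and 0.271 and 0.260 for ATOX1. The ratio of COX17 stayed between 1.39 and 1.60 among cells of 1 cycle phase. With each cell thinned to 2000 UMIs it was 1.08 and 1.16 and so under the limit. Thinning lowers this ratio by construction, since counting noise is a larger part of fewer UMIs, so the drop does not bear on the spread.

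**Figure D2:**
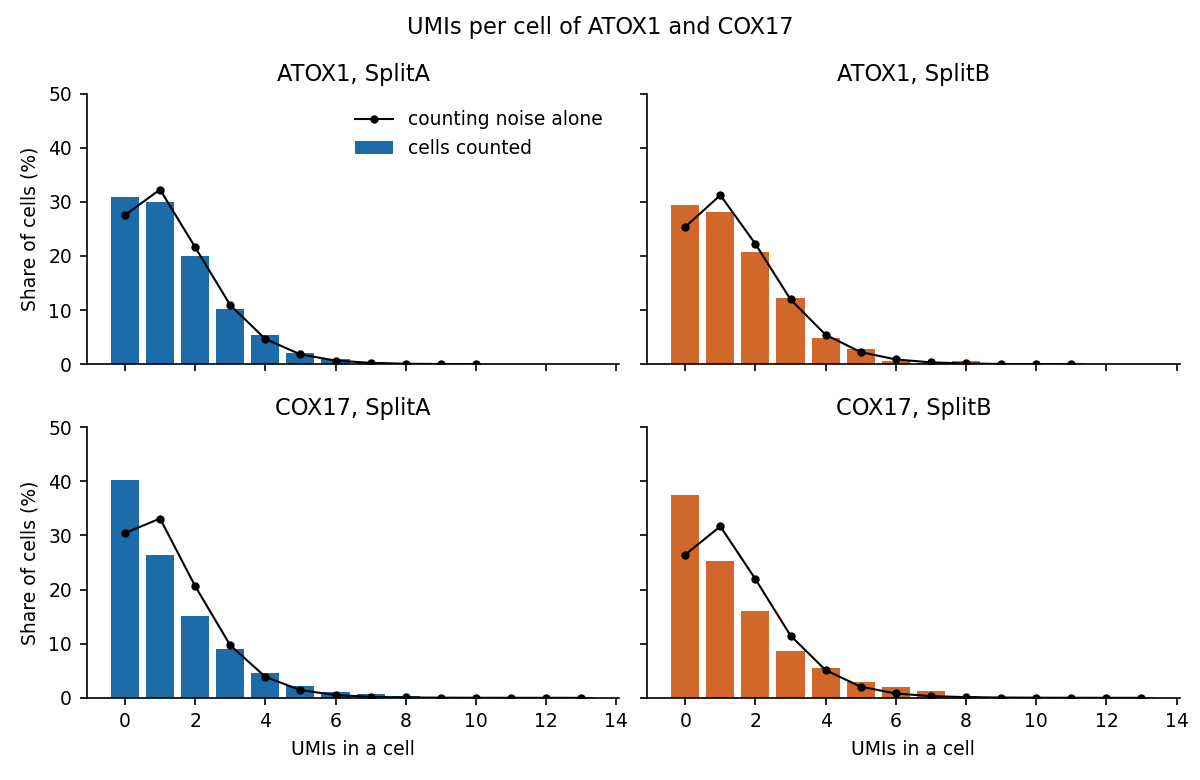
Share of cells in percent by the UMIs of ATOX1 (top) and COX17 (bottom) in a cell, for SplitA and SplitB, as bars, with the share that Poisson counting at the depth of each cell gives as a black line. The bar at 0 UMIs stands above the line for COX17, at 361 cells against 273 in SplitA and 447 against 316 in SplitB, and the tail from 5 UMIs up is also above it.

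The level of COX17 also went with the amount of RNA recovered from a cell. In 4 groups of equal size, ordered by the UMIs of the cell, it was at 164, 163, 211 and 231 CPM in SplitA and at 142, 209, 213 and 261 in SplitB. The first and last groups did not overlap in their intervals in either flask, at 137 to 194 against 212 to 252 and 121 to 167 against 244 to 279.9. ATOX1 went from 186 to 232 and from 194 to 254, with intervals that overlapped in SplitA and not in SplitB. SCO1 went the other way by a little, from 28.3 to 26.4 and from 34.0 to 24.1, within its intervals. COX11 was at 68.9 (52.0 to 89.4) in the first group of SplitA and 38.6 (27.8 to 52.2) in that of SplitB. Of the 70 and 104 cells with at least 15% mitochondrial UMIs, described below, 68 and 98 had no more UMIs than the median cell. COX17 was lower and SCO1 higher in such cells, and the 4 groups were not remade without them.

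**Figure D3:**
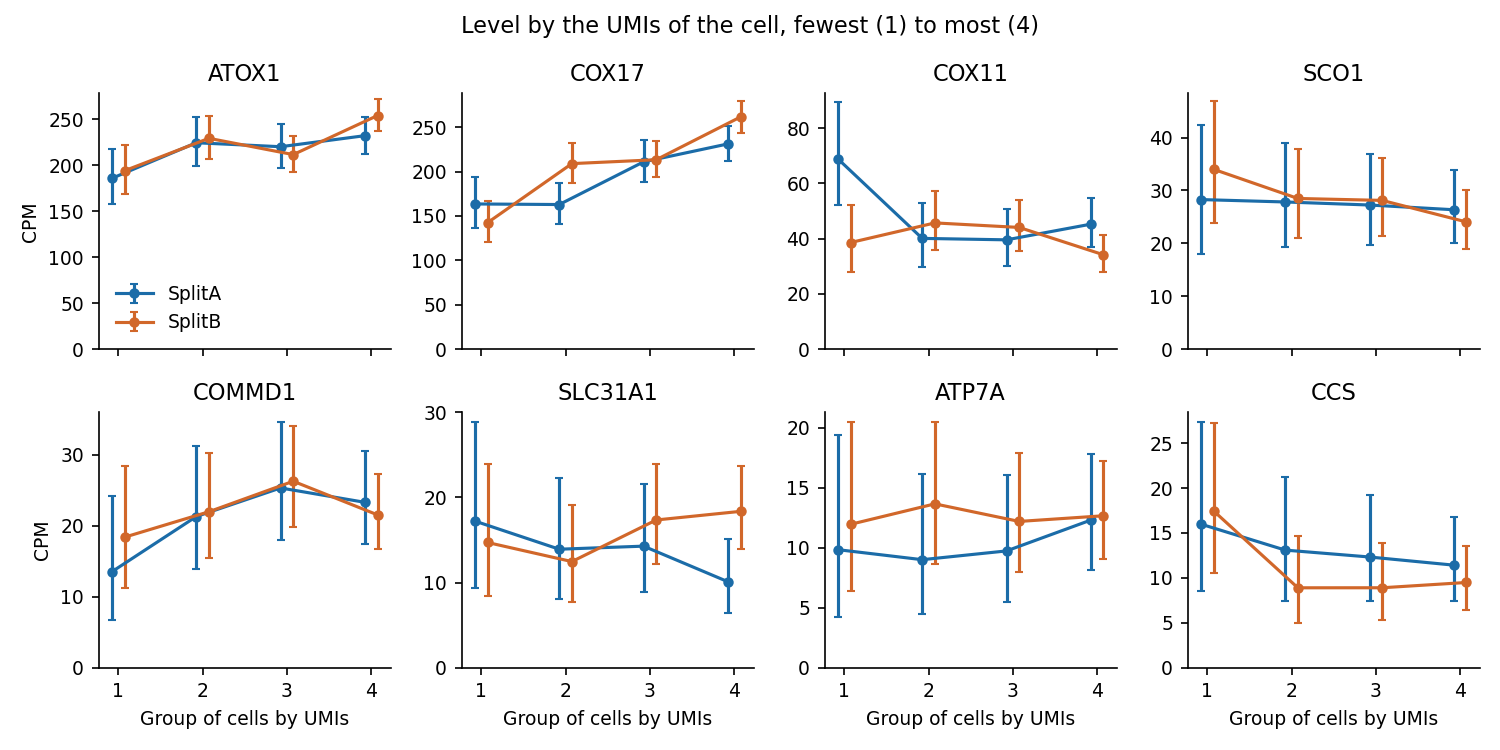
CPM of 8 members in 4 groups of cells of each flask by their UMIs, from fewest to most, with 95% Poisson intervals (ATP7B, with 12 UMIs in all, is left out). COX17 climbs from 164 to 231 in SplitA and from 142 to 261 in SplitB, and the intervals of SLC31A1, ATP7A and CCS overlap throughout.

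The cells were not synchronised, so the phases could be compared within each flask, for cells called G1, S or G2M from lists of cycle genes that hold none of the members. SplitA had 370 cells in G1, 273 in S and 256 in G2M, and SplitB 503, 343 and 349. A gene was counted where its log2 ratio was at least 0.25 in the same direction in both flasks. A gene without a UMI in 1 of the groups has no ratio and could not be counted. COX17 was highest in G2M in both: it was at 163, 199 and 253 CPM in G1, S and G2M of SplitA and at 194, 219 and 261 in SplitB. The log2 ratio of G2M to G1 was 0.63 (0.43 to 0.83) and 0.43 (0.27 to 0.59), and that of S to G1 was 0.28 and 0.17, short of the limit in SplitB.

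ATOX1 was level over the cycle, with G2M to G1 ratios of -0.03 (-0.22 to 0.16) and -0.10 (-0.26 to 0.06). CCS was lower in G2M than in G1, with 19 and 34 UMIs in SplitA (log2 ratio of -0.52, -1.42 to 0.33) and 19 and 43 in SplitB (-0.76, -1.62 to 0.05). ATP7B passed the size rule for G2M against G1 too, on 1 UMI in either phase of SplitA and 3 in either of SplitB, too few to read. For G2M against G1, COX11 and SCO1 stayed within 0.25 in both flasks. SLC31A1, ATP7A and COMMD1 were past 0.25 there in 1 flask only.

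This made 3 of the 9 members past the limit for G2M and none for S, but CCS and ATP7B are not among the 5191 covered genes. Of the 5 covered members COX17 alone was past it for G2M and none for S, against 41.5% and 29.6% of the 5191 genes. Of the genes covered at 1% of cells, which leave out ATP7B, 42.5% and 33.2% were past it. The members were thus no more often past the limit than genes at large. The median of all 5191 genes was itself 0.12 and 0.11 higher in G2M, and 69.1% of the genes past the limit were higher there, or 51.7% once the ratios were centred on that median. For S these shares were 72.1% and 58.9%. With centred ratios COX17 was still past the limit in G2M, ATP7B was not, ATP7A was, as lower, and CCS was then past it in S as well.

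Cells in G2M had more UMIs, with medians of 7058 and 6985 against 5820 and 6117 in G1, and COX17 went with UMIs as above. Among cells up to the median of UMIs the log2 ratio of COX17 was 0.47 and 0.28, and among cells above it 0.62 and 0.41. The adrenergic markers summed to 2176 and 2021 CPM in G2M and to 3028 and 2920 in G1, and the mesenchymal ones to 71.7 and 119 against 162 and 195. Their part in the ratios of the members was not tested.

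Cells with at least 5 UMIs of the 11 metallothionein genes numbered 16 in SplitA and 43 in SplitB, and cells with none 474 and 618. COX17 was the only member past the limit between them, at 235 (161 to 332) against 177 (161 to 193) CPM in SplitA and 264 (217 to 319) against 188 (174 to 202) in SplitB, log2 ratios of 0.41 (-0.15 to 0.93) and 0.49 (0.19 to 0.79). The share of genes past the limit was 24.2%, and 22.6% at coverage of 1%. ATOX1 was at 0.23 and 0.06. The exporter ATP7A and the chaperone CCS had 3 to 5 UMIs in the metallothionein-rich cells of each flask, and SLC31A1 had 0 and 4, too few to give a level.

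The metallothionein-rich cells were also the cells with more UMIs, with medians of 6618 and 7956 against 5814 and 5916. Both groups were set by UMIs not divided by depth, so deeper cells enter the rich group more easily by construction. Among cells above the median of UMIs the ratio of COX17 was 0.52 and 0.47, on 8 and 29 rich cells, and among the others it was -0.48 and 0.08, on 8 and 14. COX17 no longer passed the limit when the 5% of cells with most UMIs were left out or when rich meant at least 10 UMIs. The adrenergic markers summed to 3903 and 2771 CPM in the rich cells and to 2350 and 2347 in the free ones, and the mesenchymal markers to 184 and 262 against 104 and 114. Immune and endothelial markers were at 0 in all of these cells, and the part of the other markers was not tested.

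The largest differences among members were those with the mitochondrial share of a cell. Cells with at least 15% of their UMIs from the 13 mitochondrial protein-coding genes numbered 70 in SplitA and 104 in SplitB, and had medians of 2704 and 2836 UMIs against 6329 and 6579 in the rest. Their median mitochondrial shares were 26.9% and 27.3% against 8.47% and 8.60%. The CPM totals include these UMIs, so nuclear genes are lowered in such cells by construction, and the ratios below hold that part. ATOX1 was at 118 (76.2 to 174) CPM in them against 225 (212 to 237) in the rest of SplitA, and at 129 (93.4 to 173) against 234 (223 to 245) in SplitB, log2 ratios of -0.93 and -0.86. COX17 was at 70.7 (39.6 to 117) against 207 (195 to 219) and at 108 (76.1 to 149) against 227 (216 to 238), log2 ratios of -1.55 and -1.07.

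SCO1 went the opposite way, at 75.4 (43.1 to 122) against 25.4 (21.4 to 29.9) and 49.7 (28.9 to 79.5) against 26.4 (22.9 to 30.3), log2 ratios of 1.57 and 0.91. CCS was also higher, at 0.95 (-0.72 to 2.24) and 1.46 (0.27 to 2.46), on 5 and 9 UMIs in the high-mitochondrial cells. COMMD1 was lower, at -1.26 (-4.32 to 0.63) and -0.37 (-1.84 to 0.78), on 2 and 6 UMIs. COX11 was at 0.93 in SplitA and -0.19 in SplitB. In all, 5 of the 9 members were past the limit. Of the 5 covered members 1 was higher and 3 were lower, where 59.9% of the 5191 genes were past the limit. At the 1% coverage, which leaves out ATP7B, the share was 47.1%. With a minimum of 2000 genes it was 4 of the 9, as COX11 (higher) came in and CCS and COMMD1 fell out, against 24.8% of the genes then covered. Fewer cells pass this minimum, and a gene without a UMI in 1 of the groups cannot be counted. The 24.8% and the 59.9% therefore cannot be set side by side. When mitochondrial UMIs were left out of the totals, COMMD1 was no longer past it, which left 4 of the 9 against 62.9% of covered genes. ATOX1 and COX17 stayed past it as lower, and CCS and SCO1 as higher. Of the genes past the limit 74.7% were then higher, where 58.8% were with these UMIs in the totals.

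Transcript length differed between the members that were lower and those that were higher. ATOX1, COX17 and COMMD1 have canonical transcripts of 471, 426 and 695 bases, and CCS and SCO1 of 1066 and 9577. Of the 556 genes under 1000 bases, 60.4% were past the limit as lower in the high-mitochondrial cells and 12.1% as higher, while of the 4632 longer genes 20.4% were lower and 38.1% higher. The adrenergic markers were higher as well, summing to 3779 and 4125 against 2482 and 2374 CPM, and so were the mesenchymal ones, at 174 and 187 against 111 and 143. The part of length and of cell state in the ratios of the members was not tested.

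The assigned cells under 1000 genes, 280 in SplitA and 410 in SplitB, which entered none of the values above, had median mitochondrial shares of 32.6% and 36.7%. Their CPM totals include these mitochondrial UMIs too. ATOX1 was at 106 (77.1 to 142) and 94.4 (70.9 to 123) CPM in them and COX17 at 50.6 (31.3 to 77.4) and 61.2 (42.6 to 85.1), below each of the 4 groups of kept cells. SCO1 was at 45.8 (27.6 to 71.6) and 47.2 (31.1 to 68.7) and CCS at 28.9 (14.95 to 50.5) and 29.7 (17.3 to 47.6), above their levels in the kept cells of the same flask. For SCO1 in both flasks and CCS in SplitA the intervals overlapped those of the kept cells, and for CCS in SplitB they did not. These shallower cells had the same 4 directions as the kept cells of high mitochondrial share. They are of high mitochondrial share themselves, so this is no separate check.

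**Figure D4:**
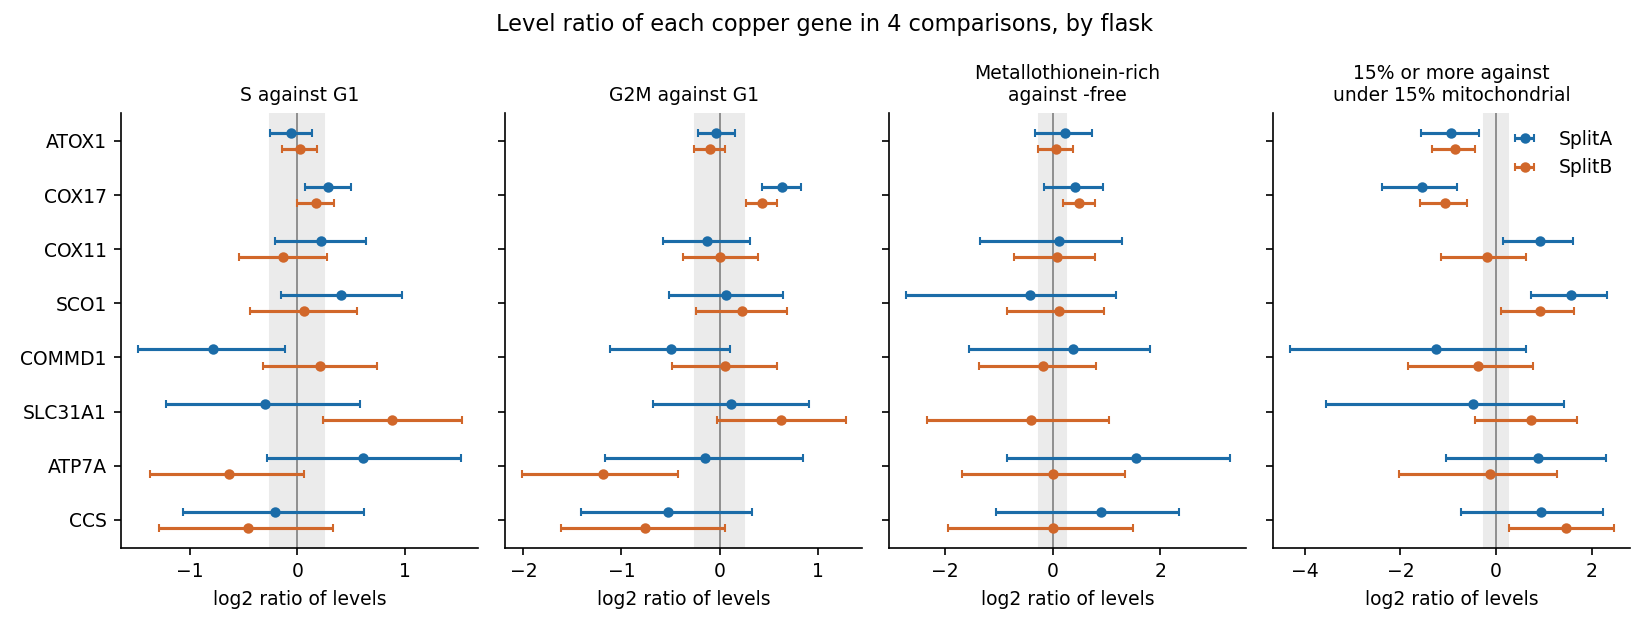
Log2 ratio of levels of 8 members in S against G1, G2M against G1, metallothionein-rich against metallothionein-free cells, and cells of at least 15% against under 15% mitochondrial UMIs, with exact 95% counting intervals per flask and the range within 0.25 shaded (no point where a group has 0 UMIs). COX17 is right of the shading in G2M at 0.63 and 0.43, and in the last panel ATOX1 and COX17 are left of it and SCO1 right of it in both flasks.

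From cell to cell the correlations among members lay near 0, as did those among genes at large. Deviations of each cell from the count expected at its depth were correlated for the 36 pairs of members, as a description over 899 and 1195 cells that share 1 library. No pair reached an r of 0.1 in both flasks, against 0.467% of all 13470645 pairs of the 5191 genes, a share so small that none would be expected among 36. Most of the 36 also include a member that is not among the 5191. The median r was -0.0063 in SplitA and 0.00014 in SplitB, against 0.0023 and 0.0030 over all pairs of covered genes, and 9 pairs were above 0 in both flasks and 11 below 0 in both.

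The partners of each copper route were among the pairs near 0. Counting noise holds r near 0 where a gene varies little beyond it. The variance was 1.09 and 1.17 times its Poisson value for ATP7A, 1.11 and 0.95 for SCO1 and 1.12 and 1.02 for COX11. Whether partners vary together in the cells therefore cannot be read from these values. ATOX1 and ATP7A had an r of 0.01 and 0.05, COX17 and SCO1 of -0.03 and -0.05, COX17 and COX11 of 0.01 and 0.07, and COMMD1 and ATP7A of -0.02 and 0.05. ATOX1 and COX17, the best counted pair, had 0.09 and 0.04, and the highest value in a flask was that of SLC31A1 and ATP7A in SplitB, at 0.10, where it was 0.01 in SplitA. SLC31A1 and ATP7A had UMIs in the same cell in 8 cells of SplitA and 18 of SplitB, so such an r rests on few cells.

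**Figure D5:**
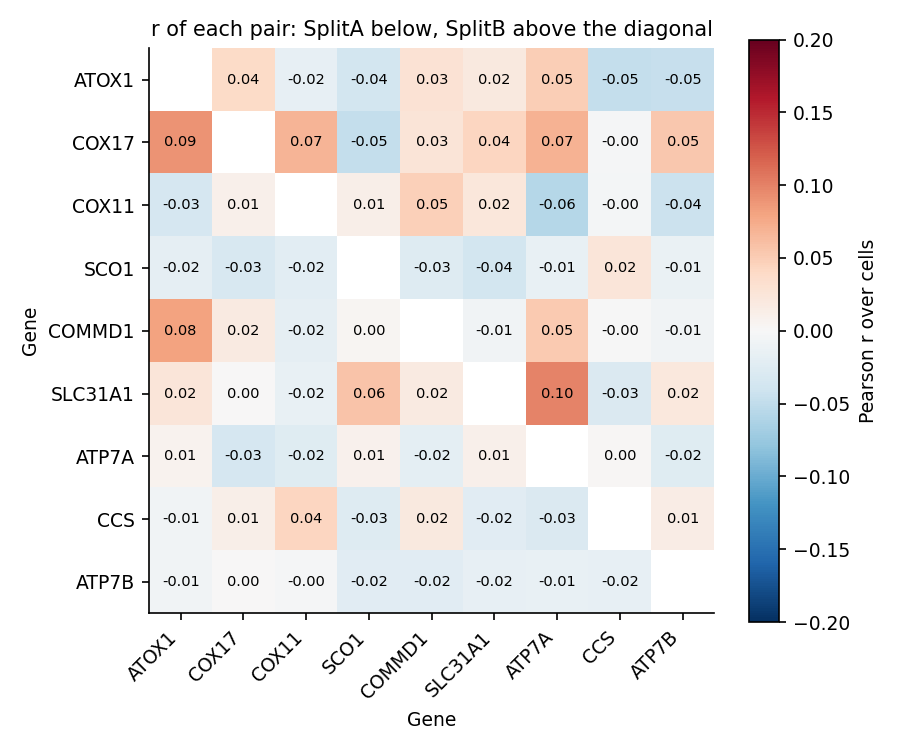
Pearson r over cells of the deviations from the depth expectation for the 36 pairs of copper genes, with SplitA below the diagonal and SplitB above it, in the order of their levels. No pair is at 0.1 or more on both sides, and the pairs with ATP7B, which has 12 UMIs, rest on few cells.

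The highest r of ATOX1 and COX17 were with other abundant genes, most of them of short transcripts. For each of the 5 covered members, the genes nearest to it are those with the highest value of the smaller r of the 2 flasks. For ATOX1 these were ATP5F1E (a subunit of ATP synthase, r of 0.23 and 0.22), OST4 (of the oligosaccharyltransferase, 0.19 and 0.18) and UBL5 (a ubiquitin-like protein, 0.17 and 0.18). For COX17 they were ATP5F1E (0.22 and 0.25), TMA7 (0.19 and 0.18) and DYNLL1 (a dynein light chain, 0.21 and 0.17). Of the 20 nearest genes of each, 5 were shared: ATP5F1E, ATP5MK, OST4, POLR2L and UQCRQ.

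The r of ATOX1 reached 0.1 in both flasks with 22 of the 5191 covered genes and that of COX17 with 47. No gene did so with COX11, COMMD1 or SCO1. Over all pairs of covered genes the share at this r was 0.467%. That share is an average over genes of all levels, and the counts were not set against those of genes of the same level. Among the 20 nearest genes 13 had canonical transcripts under 1000 bases for ATOX1 and 13 for COX17, where 10.7% of the 5188 genes with a known length did, and their median levels were 836 and 638 CPM against 39.7 over all 5191 genes. The rest were longer, up to 5670 bases for ATOX1 and 6399 for COX17, and the nearest gene of both, ATP5F1E, has 3610.

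For SCO1 the nearest were COX6A1, a nuclear subunit of cytochrome c oxidase (0.13 and 0.10), and MT-CO3, a mitochondrial one (0.12 and 0.09). Among cells under 15% mitochondrial UMIs these were at 0.03 and 0.09 and at 0.02 and 0.02. COX11 was nearest to ARMC6, HAND1 and PMAIP1 and COMMD1 to PFN1, ILK and GNG11, all with an r of 0.08 to 0.12. With the summed metallothioneins the r of the 5 members lay between -0.04 and 0.06.

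Other genes of copper handling gave the setting of the members. The list for cytochrome c oxidase had 12 further genes that help to assemble it, some of them by supplying copper or heme. Of these, 11 had a row, 10 had UMIs and 8 were covered, led by PET100 at 157 and 157 and SURF1 at 147 and 152. CMC2, like COX17 a small cysteine-rich protein of the intermembrane space, was higher in S (0.94 and 0.84) and in G2M (1.66 and 1.31). SURF1 was lower in G2M (-0.30 and -0.31). Past the limit for S were 29.6% of all covered genes, and for G2M 41.5%, so single genes past it are common. In the high-mitochondrial cells 6 of these 8 were lower and none higher. The 6 include PET100 at only -0.26 and -0.27, and the totals hold the mitochondrial UMIs. Of the 5191 genes 59.9% were past the limit, 1281 of them as lower, and 60.4% of the genes under 1000 bases were lower. The list had medians of -0.71 and -0.53 against 0.15 and 0.14 over all genes, and the 3 with the largest smaller ratio were CMC1 (-1.23 and -1.10), COA3 (-0.80 and -1.41) and COA6 (-0.62 and -2.46).

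Of 8 other importers and reductases SLC25A3 alone was covered, and it was lower in S (-0.33 and -0.29) and G2M (-0.48 and -0.33). Of 14 genes of the COMMD family and its complex 8 were, led by COMMD6 at 487 and 500 and COMMD4 at 81.3 and 88.1, and for G2M 1 of the 8 was higher (VPS29, 0.26 and 0.39) and 2 lower (COMMD5 and COMMD9). Of 12 copper enzymes 3 were, DBH, SOD1 and PAM, the last an amidating enzyme of secretory granules. DBH was lower in G2M (-0.74 and -0.88), and DBH (0.96 and 0.35) and PAM (1.48 and 1.11) were higher in metallothionein-rich cells. SOD1 was within 0.25 in both phase comparisons. The shares of all covered genes past the limit were 29.6% for S, 41.5% for G2M and 24.2% for metallothionein-rich cells. These single genes are therefore no result about copper handling.

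Of 9 other copper-binding or copper-related genes 4 were covered, led by CUTA at 295 and 298 and APP at 95.2 and 91.6, and in G2M CUTA was lower (-0.45 and -0.34). Of 11 genes of the lipoylation route 6 were, led by GCSH and PDHB, and FDX1 was higher in G2M (0.38 and 0.70) and PDHA1 lower (-0.40 and -0.76). Of 5 regulators of transcription that the WikiPathways copper list described below also holds, 2 were covered, FOXO3 and MTF2. FOXO3 was higher in G2M (0.52 and 0.65). MTF1, the factor that binds metal response elements, was under the coverage limit, at 12.99 and 13.02. Of 11 metallothioneins 2 were, MT2A at 58.3 and 109 and MT1X at 54.7 and 100.4, both past the limit between the flasks. Among all covered genes 6.51% were past it between the flasks and 41.5% for G2M. The G2M ratios of single genes here are thus of a common size.

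All 10 nuclear subunits of cytochrome c oxidase were covered, led by COX7C at 1087 and 1113 and COX7A2 at 1003 and 1067, and none was past the limit in S or G2M, against 29.6% and 41.5% of all covered genes. COX8A was barely short of it for G2M, at 0.297 and 0.2496. In the high-mitochondrial cells 4 were lower and 1 higher, COX6A1 (1.457 and 1.196). Of the 54 genes of the WikiPathways copper list, which holds the members, 52 had a row and 22 were covered, and for G2M 6 were higher and 1 lower, where 41.5% of all covered genes were past the limit and 69.1% of those were higher. The study took up this list on these same samples, so its count is no independent evidence.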

How the data were processed

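UMI counts of 1 mRNA library and 1 hashtag library of untreated SY5Y cells were used. The authors mapped reads to GRCh38 and counted UMIs per gene with Cell Ranger 4.0.0 (STAR 2.7, per the submitters' processing notes). The deposited values are raw counts of 33538 Ensembl genes and 2 hashtags in 2879 distinct barcodes, and the annotation release is not given in the sources used here. Symbols were found for 33113 identifiers.

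Cells with 1000 genes were kept, without a mitochondrial limit. Multiplets by hashtag were left out, but doublets within a flask cannot be seen. Total counts per kept cell were 1801 to 27205. Levels are CPM, UMIs per 1000000. Phases came from Seurat 5.3.0 in R 4.3.3 (42 of 43 S and 52 of 54 G2M genes found), TMM factors from edgeR 4.0.16, and other values from Python 3.11.15 with numpy 2.4.6 and scipy 1.17.1. Steps were tested on simulated data.

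With 1 flask against 1 flask no test was possible between flasks, and groups of cells within a flask were compared without one, as both flasks are of 1 culture and 1 library. The members, lists and rules were chosen with earlier results of these data known. Named genes are the members, the 2 highest of each list, at most 3 past the limit, and the 3 nearest genes, of which some are not reported here. Of the alternatives tried, those named so below were added after seeing the data.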

Additional observations from a re-analysis of the deposited data

How the results depend on the processing

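With 1 flask against 1 flask, counting intervals leave out the variation between cultures, doublets within a flask cannot be seen, and the share of free RNA is not known. Counts of members past a limit rest on few UMIs for SLC31A1, ATP7A, CCS and ATP7B. Comparisons of groups of cells were made within each flask, with a ratio per flask and no paired test, since both flasks are of 1 culture and 1 library. Of 85 recomputed counts of members or pairs, 66 stayed within 1.5 times the first value. In each change below the cause was not tested, apart from changes made by construction. A wider size limit narrows the count, and thinning lowers the variance ratio. A single flask widens the count, as no second flask need show the same direction.

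Between flasks the count of 4 members became 2 (ATP7A and ATP7B) at a hashtag limit of 100 counts and 1 (ATP7B) at a size limit of 0.5. The shares of covered genes past the limit were then 7.55% and 0.135%. For S against G1 the count of 0 became 1 (CCS, lower) with a minimum of 300 genes or of 2000 genes. It did so too with the updated list of cycle genes and with centred ratios. The shares of covered genes in these settings were 33%, 31.5%, 29.8% and 29.1%. For G2M the count of 3 became 1 (CCS) at a size limit of 0.5, against 18.7% of covered genes. Among cells up to the median of UMIs it became 5, against 36.2%. For metallothionein-rich cells the count of 1 became 2 with 2000 genes, as COX11 (lower) joined COX17. It was also 2 without the 5% of cells with most UMIs, with COX11 and ATP7A (higher) in place of COX17. It was 0 at a size limit of 0.5 and 0 from 10 UMIs. The shares of covered genes in these settings were 25.9%, 25%, 9.32% and 19.4%. COX17 was the member over the limit of variance in every setting except thinning to 2000 UMIs, which left 0. No setting brought a pair of members to an r of 0.1 in both flasks.

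In SplitA alone and SplitB alone the count for S was 6 and 3, against 51.7% and 47.4% of covered genes. For G2M it was 4 and 5, against 59.6% and 56.7%. For metallothionein-rich cells it was 5 and 2, against 66.4% and 54.8%. For the mitochondrial share it was 9 and 6, against 80.5% and 79.8%. Without SplitA or SplitB, COX17 stayed past the limit for G2M. The mean level of each member moved by at most 1.197-fold in 8 alternatives, or 1.38-fold for ATP7B. Centring, the division by the median of UMIs and the split by phase were chosen after seeing the data.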

Other observations

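The 73 multiplets with at least 1000 genes, cell barcodes that the hashtag rule assigned to neither flask and that entered no comparison, had a median of 7636 UMIs. ATOX1 was at 237 (199 to 280.3) CPM in them, COX17 at 170 (138 to 207), COX11 at 32.9 (19.8 to 51.3) and SCO1 at 20.8 (10.7 to 36.3). The interval of COX17 lay below that of the singlets of SplitB and overlapped that of SplitA.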
